A study of Mus musculus with 8 samples.

Results

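Hyaluronan is a long, unsulfated sugar polymer of the extracellular matrix. Has1, Has2 and Has3 encode the membrane synthases that make it, Hyal1 and Hyal2 encode hyaluronidases that cut it, Cd44 encodes a cell surface receptor for it, and Vcan (versican) and Tnfaip6 (TSG-6) encode secreted proteins that bind it. These 8 genes were chosen by name, from the gene symbols of the annotated array table. All 8 were measured, among 20679 genes, by 19 probe sets. Each gene is given by its probe set with the highest mean, and the other probe sets are described where they exist.

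The arrays came from adult C57Bl6 mice, with 1 array per group and so no replicate error. Whole liver was from a wild-type mouse, and every sorted cell sample was from Col1a1-GFP transgenic mice, in which a collagen promoter drives a green fluorescent protein. With no injury named, the fractions were vitamin A-positive hepatic stellate cells (HSC), cells negative for vitamin A and positive for GFP (VitA-GFP+ cells) and GPM6A-positive mesothelial cells (MC). Portal fibroblasts (PF) came from a sham operation and from biliary fibrosis, and HSC and MC were also taken from biliary fibrosis. The labels do not say how fibrosis was induced, how many animals were pooled or how PF were gated. For HSC and MC of fibrosis no sham sample was analysed here, so each was compared with its own cell type with no injury named.

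In liver, hyaluronan is known to be made mainly by mesenchymal cells and to be taken up from blood by sinusoidal endothelial cells through scavenger receptors. Its building blocks are the nucleotide sugars UDP-glucuronic acid and UDP-N-acetylglucosamine. TSG-6 moves heavy chains of the serum protein inter-alpha-inhibitor onto hyaluronan, which cross-links it, and versican binds it through a link domain.

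Levels are log2 values of the deposited intensities. To be called higher or lower, a gene needed a log2 difference of at least 2 (4-fold) and, on the brighter of both arrays, a level no lower than that array's median over probe sets other than controls (5.31 to 5.68). Levels below that median are dim, and their order carries little information. With 1 array against 1 there is no test, and the share of all genes that meet the same rule is the yardstick. The signal of a fraction is a bulk value, in which fewer cells of a type and less RNA per cell cannot be told apart.

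Some features of the arrays bear on every result. The 3'/5' ratio of Gapdh, a measure of RNA and amplification quality, was 1.42 to 2.01 on the 4 arrays of whole liver and of fractions with no injury named, and 5.68 to 13.8 on the other 4, which were PF of sham and PF, HSC and MC of fibrosis. The PF pair lies within the second range (13.2 and 10.2). The HSC and MC pairs cross the ranges, so in them this ratio and fibrosis cannot be told apart. Sex-linked genes moved with several comparisons. Xist was 11.96 in sham PF and 5.31 in PF of fibrosis, 11.41 in MC and 5.84 in MC of fibrosis, and 11.40 in whole liver, against 4.37 to 4.55 in VitA-GFP+ cells and both HSC arrays. Ddx3y was 2.04 in whole liver, 2.78 in sham PF and 9.67 to 11.83 on the other 6 arrays. The part of sex in the results was not tested. All 12 HSC markers were at or above the array median in both HSC arrays, but also in whole liver, VitA-GFP+ cells and sham PF. Their summed intensity was 93477 in HSC and 61027 in HSC of fibrosis, against 5305 to 23698 elsewhere. All 10 mesothelial markers were there in both MC arrays, and also in VitA-GFP+ cells and PF of fibrosis, with sums of 61206 in MC and 37574 in MC of fibrosis against at most 19886 elsewhere. All 12 portal fibroblast markers were there in both PF arrays and also in VitA-GFP+ cells, with sums of 46191 in sham PF and 24654 in PF of fibrosis against 37077 in VitA-GFP+ cells. The sum was 23750 in MC, close to that of PF of fibrosis. In MC of fibrosis it was 11522, with 11 of 12 of these markers at or above the median. VitA-GFP+ cells had all 10 macrophage and all 10 endothelial markers at or above the median as well, PF of fibrosis had all 10 cholangiocyte markers there, and HSC of fibrosis had 9 of 10 macrophage and 11 of 12 portal fibroblast markers.

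Tnfaip6 and Cd44 had the highest levels of their probe sets in mesenchymal fractions and were higher in HSC and MC of fibrosis than in the same fractions with no injury named, so the sequences before their annotated starts are shown. They are from the RefSeq table of build GRCm38.p6, which matched 6 of the 8 genes. The window is the 250 bases before the start, of which 246 are printed for Cd44, and no base of the annotated gene is printed. Capitals mark every match, on either strand, to the AP-1 motif TGANTCA, the CCAAT box, the GC box GGGCGG, the TEAD motif GGAATG, the CRE motif TGACGTCA or the TATA motif TATAAA. Tnfaip6 lies on the plus strand, with the window at chr2:52037863-52038112, and Cd44 on the minus strand, with the window at chr2:102901670-102901915.
Tnfaip6: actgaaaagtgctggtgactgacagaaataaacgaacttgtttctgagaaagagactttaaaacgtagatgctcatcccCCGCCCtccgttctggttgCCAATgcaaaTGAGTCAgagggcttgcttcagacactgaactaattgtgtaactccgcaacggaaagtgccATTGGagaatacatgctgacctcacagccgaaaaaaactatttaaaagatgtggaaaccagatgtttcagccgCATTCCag
Cd44: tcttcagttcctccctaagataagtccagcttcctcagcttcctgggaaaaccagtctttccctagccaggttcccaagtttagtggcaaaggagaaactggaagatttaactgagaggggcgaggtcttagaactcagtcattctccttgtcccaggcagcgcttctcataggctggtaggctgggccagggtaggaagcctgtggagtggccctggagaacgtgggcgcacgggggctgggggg
The Tnfaip6 window held 1 AP-1 match, which begins 142 bases before the start, 2 CCAAT boxes, 1 GC box and 1 TEAD match 8 bases before the start. The Cd44 window held none of the 6 motifs. Among all 32851 windows of 250 bases before a start in the table, 6.75% held the AP-1 motif, 33.8% the CCAAT box, 32.7% the GC box and 12.6% the TEAD motif. Of the 6 matched genes, 1 held the AP-1 motif. The windows of Hyal2, Vcan and Has1 lie wholly inside the annotated gene, so this count is not over upstream sequence alone. These are matches of letters and not shown to be binding sites.

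The 3 synthase genes had different cells with their highest levels. Has1 was 8.02 in MC, 7.96 in MC of fibrosis, 7.78 in VitA-GFP+ cells, 6.99 in sham PF and 6.32 in PF of fibrosis. It was dim, below the array median, in HSC of fibrosis (5.35), HSC (4.70) and whole liver (4.50). Has1 was thus above the array median on both MC arrays and below it on both HSC arrays. The order of the dim HSC and whole-liver levels carries little information. Between the fractions with no injury named, Has1 was 10.01-fold lower in HSC than in MC, a log2 difference of -3.32. It was the only 1 of the 8 genes that differed by 4-fold in that comparison, where 8.97% of all genes did and 4.77% were lower. In fibrosis the difference between HSC and MC was -2.61.

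Has2, the main synthase in development in mice, was highest in sham PF, at 7.28. It was 6.41 in VitA-GFP+ cells and 6.32 in PF of fibrosis, and below the array median in HSC (5.07), HSC of fibrosis (5.04), whole liver (4.21), MC (3.79) and MC of fibrosis (3.59). Has2 and Has1 thus stood in a different order over the fractions, with PF at the top for Has2 and MC at the top for Has1. The second Has2 probe set was also highest in sham PF, at 5.72, and was below the array median on the other 7 arrays (2.71 to 4.43). In fibrosis Has2 was lower in MC than in PF by 2.73.

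Has3 was dim nearly everywhere. Its level was 5.62 in MC of fibrosis, the only array on which it reached the median, and 3.28 to 4.71 on the other 7. The difference within MC was 1.88, under the 4-fold rule. It was 2.18 after quantile normalization anew and 2.05 after a shift of all arrays to the same median, which meet the rule, and 1.15 on the log2(value + 16) scale.

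**Figure D1:**
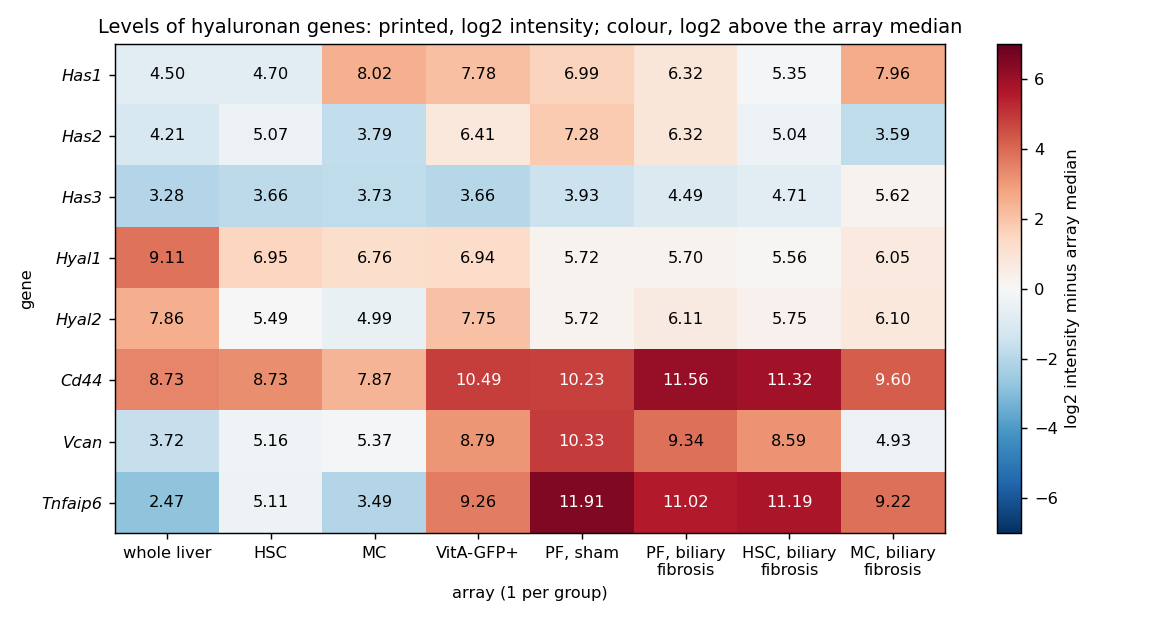
Each cell prints the log2 intensity of a gene (rows) on an array (columns, 1 per group), and the colour gives that level minus the median of the array. Has1 stands highest in MC, Has2 and Tnfaip6 in sham PF, Hyal1 and Hyal2 in whole liver, and Cd44 in PF of biliary fibrosis.

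Both hyaluronidase genes had their highest level in whole liver. Hyal1, whose product is a lysosomal hyaluronidase, was 9.11 in whole liver, 6.95 in HSC, 6.76 in MC and 6.94 in VitA-GFP+ cells. It was 6.05 in MC of fibrosis, 5.72 in sham PF, 5.70 in PF of fibrosis and 5.56 in HSC of fibrosis. The 4 arrays with the high Gapdh ratio were the 4 lowest, and the part of that ratio in this order was not tested. Its probe set also names Nat6, so the 2 transcripts cannot be told apart. Hyal2, whose product is a membrane-anchored hyaluronidase, was 7.86 in whole liver and 7.75 in VitA-GFP+ cells. The other arrays lay between 4.99 (MC) and 6.11 (PF of fibrosis), and MC alone was below the median. Stab2, a scavenger receptor gene of sinusoidal endothelium, was 12.03 in VitA-GFP+ cells, where all 10 endothelial markers were at or above the median. The part of such cells in the Hyal2 level was not tested.

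Cd44 was well above the array median on all 8 arrays. Its level was 11.56 in PF of fibrosis, 11.32 in HSC of fibrosis, 10.49 in VitA-GFP+ cells, 10.23 in sham PF, 9.60 in MC of fibrosis, 8.73 in HSC, 8.73 in whole liver and 7.87 in MC. In each fraction measured with and without fibrosis, the array of fibrosis was the higher. Cd44 is also abundant on leukocytes. Ptprc, which marks leukocytes, was 2.06 in HSC, 2.70 in MC and 6.24 in sham PF, against 9.27, 7.92 and 7.44 in the same fractions of fibrosis. It thus moved in the same direction as Cd44 in every pair. Among the arrays of fibrosis the order differed, with Ptprc lowest and Cd44 highest in PF. Ptprc was also 8.93 in VitA-GFP+ cells and 8.52 in whole liver. The part of leukocytes in the Cd44 levels was not tested.

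Vcan was high in PF and low in MC. Its leading probe set read 10.33 in sham PF, 9.34 in PF of fibrosis, 8.79 in VitA-GFP+ cells and 8.59 in HSC of fibrosis. It was below the array median in MC (5.37), HSC (5.16), MC of fibrosis (4.93) and whole liver (3.72). A gap of 3.22 parts the 4 high arrays from the 4 low ones. HSC therefore stand on both sides of the gap, low with no injury named and high in fibrosis.

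Tnfaip6, whose product is known to be induced by inflammatory cytokines, had the widest span of the 8 genes. Its level was 11.91 in sham PF, 11.19 in HSC of fibrosis, 11.02 in PF of fibrosis, 9.26 in VitA-GFP+ cells and 9.22 in MC of fibrosis. It was below the array median in HSC (5.11), MC (3.49) and whole liver (2.47). A gap of 4.11 parts the high arrays from the low ones. The 5 high arrays are the 4 with the high Gapdh ratio and that of VitA-GFP+ cells, whose ratio was 1.56, and the part of the ratio was not tested.

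The first fibrosis comparison set HSC of biliary fibrosis against HSC with no injury named. Tnfaip6 was 67.5-fold higher (log2 difference 6.08), Vcan 10.8-fold (3.44) and Cd44 6.02-fold (2.59). These were 3 of the 8 genes, and 5.90% of all genes were higher by the same rule. A difference as large as that of Tnfaip6 was reached by 0.179% of all genes, of Vcan by 1.86% and of Cd44 by 3.56%. Tnfaip6 (5.11) and Vcan (5.16) were below the array median in HSC with no injury named. The size of these 2 differences therefore depends on how dim values are treated. No member was 4-fold lower, and in both directions 9.03% of all genes met the rule. Hyal1 differed by -1.40. Has1 (0.65), Has2 (-0.03) and Has3 (1.04) were below the array median on both arrays. Markers of other cells were higher in the same pair. Of 10 macrophage markers 9 were 4-fold higher, and their summed intensity was 345 in HSC and 11892 in HSC of fibrosis. Of 12 portal fibroblast markers 9 were higher, from a sum of 410 to 9467, and of 10 lymphocyte and neutrophil markers 5 were, from 161 to 1821. Their part in the differences of Cd44, Vcan and Tnfaip6 was not tested. The Vcan difference was 0.46 and that of Cd44 1.87 when all probe sets of a gene were averaged, so that only Tnfaip6 met the rule.

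In MC, Tnfaip6 was 53.2-fold higher in fibrosis, a log2 difference of 5.73. It was the only member of the 8 to meet the rule, where 6.20% of all genes were higher and 10.9% met the rule in either direction, and 0.121% of all genes had a difference as large. Because its level in MC was dim, the size depends on how dim values are treated, and it was 4.49 on the log2(value + 16) scale. Cd44 differed by 1.73, Has3 by 1.88 and Hyal2 by 1.11, and Has1 by -0.07. Vcan was below the array median on both MC arrays and differed by -0.44. Macrophage markers were also higher here, 7 of 10 by 4-fold, with a summed intensity of 1186 in MC and 7553 in MC of fibrosis. Lymphocyte and neutrophil markers were higher for 5 of 10, from 566 to 2699.6. Their part in the Tnfaip6 and Cd44 differences was not tested.

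In PF none of the 8 genes met the rule in fibrosis against sham, where 5.34% of all genes did in either direction. Cd44 differed by 1.33, or 2.52-fold. Vcan (-0.997), Has2 (-0.97), Tnfaip6 (-0.89) and Has1 (-0.67) were lower in fibrosis, each by less than 2-fold. Sham PF stood at or near the top for Tnfaip6, Vcan and Has2. Of 10 macrophage markers 6 were 4-fold higher in PF of fibrosis, with a summed intensity of 674 in sham and 8715 in fibrosis. Of 10 cholangiocyte markers 8 were, from 1166 to 8133, and their part in the Cd44 difference was not tested.

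**Figure D2:**
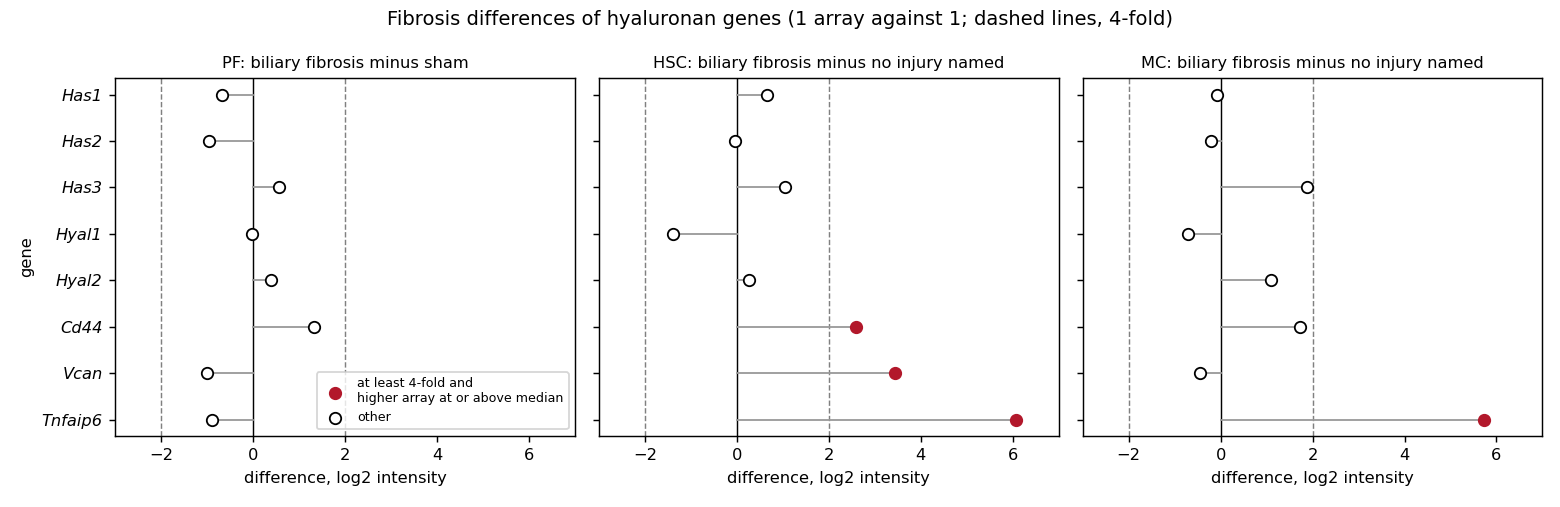
Points are log2 differences between 1 array of biliary fibrosis and 1 comparison array, for the 8 genes in PF, HSC and MC. Filled points meet the 4-fold rule and dashed lines mark 4-fold. Tnfaip6 is filled in HSC (6.08) and MC (5.73), Vcan and Cd44 in HSC only, and none in PF.

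HSC and MC were also set against each other with no injury named and in fibrosis, where their Gapdh ratios were 1.75 and 2.01, and 5.68 and 13.8. HSC minus MC was -0.21 for Vcan with no injury named and 3.66 in fibrosis, which differ by 3.87. The first of these rests on levels below the array median. For Tnfaip6 the same values were 1.62, likewise between dim levels, and 1.97, for Cd44 0.86 and 1.72, and for Has1 -3.32 and -2.61. The part of the Gapdh ratio in these differences was not tested. Between HSC and MC of fibrosis 2 of the 8 differed by 4-fold, Vcan (higher in HSC) and Has1 (lower). Of all genes 5.73% were higher and 4.13% lower, 9.86% together. These values use the same arrays as the fibrosis pairs and are not independent of them.

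Between HSC and PF of fibrosis none of the 8 met the 4-fold rule, where 6.05% of all genes did, so the count is near the background. The largest difference was that of Has2 (-1.28), while Tnfaip6 (0.17), Cd44 (-0.24) and Vcan (-0.74) lay closer together. Between MC and PF of fibrosis, Vcan (-4.40) and Has2 (-2.73) were lower in MC, 2 of the 8, where 5.74% of all genes were lower and 7.96% differed in either direction. Has1 differed in the other direction, by 1.64.

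With no injury named, Has2, Hyal2, Cd44, Vcan and Tnfaip6 had higher levels in VitA-GFP+ cells than in HSC or MC. Against them HSC were lower in Has1 (-3.08), Hyal2 (-2.27), Vcan (-3.63) and Tnfaip6 (-4.15), 4 of the 8, where 7.11% of all genes were lower and 9.98% differed. MC were lower in Has2 (-2.61), Hyal2 (-2.76), Cd44 (-2.62), Vcan (-3.42) and Tnfaip6 (-5.77), 5 of the 8, where 6.60% of all genes were lower and 9.51% differed. These comparisons share the VitA-GFP+ array. Tnfaip6 was higher in sham PF than in these cells by 2.65, and Hyal2 differed by -2.03. These were 2 of the 8, where 1.97% of all genes were higher, 3.84% lower and 5.81% either. The Hyal2 difference did not meet the rule after quantile normalization, after a shift to the same median or on the log2(value + 16) scale.

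Whole liver had the highest levels of both hyaluronidase genes. Hyal1 differed from whole liver by -2.16 for HSC, -2.18 for VitA-GFP+ cells and -2.35 for MC, each lower than the liver. Hyal2 was lower in HSC (-2.37) and MC (-2.87). Hyal1 and Hyal2 were the only members that differed by 4-fold in HSC, 2 of the 8, where 11.0% of all genes were lower and 19.6% differed. After quantile normalization Hyal1 no longer met the rule there. In MC, Has1 was higher as well (3.52), so that 3 of the 8 met the rule, where 8.78% of all genes were higher, 11.4% lower and 20.2% either. In VitA-GFP+ cells Has1 (3.28), Has2 (2.20), Vcan (5.07) and Tnfaip6 (6.80) were higher, and with Hyal1 5 of the 8 met the rule, where 10.5% of all genes were higher, 7.26% lower and 17.7% either. Has2 no longer met the rule there after quantile normalization, after a shift to the same median or on the log2(value + 16) scale. All these comparisons share the whole-liver array.

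The probe sets of Cd44 and Vcan did not all read the same way. Cd44 had 4, of which 3 were at or above the array median on all arrays. These 3 gave fibrosis differences of 2.59 to 3.09 in HSC, 1.73 to 3.44 in MC and 0.83 to 1.95 in PF. The fourth, 1443265_at, was below the median on all 8 arrays. Vcan had 8. The 3 brightest had the same pattern of high PF and low MC, and differed by 3.03 to 3.44 in HSC. Probe set 1433043_at did the opposite. It read 7.74 in HSC and 7.22 in MC, and 2.62 to 4.49 on the other 6 arrays, so it was lower in HSC of fibrosis by 3.47 and in MC of fibrosis by 4.60. Probe set 1433044_at was likewise highest in HSC, at 5.87. The other 3 were between 1.52 and 2.98 on every array. Which stretch of the transcript each probe set matches was not analysed here.

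**Figure D3:**
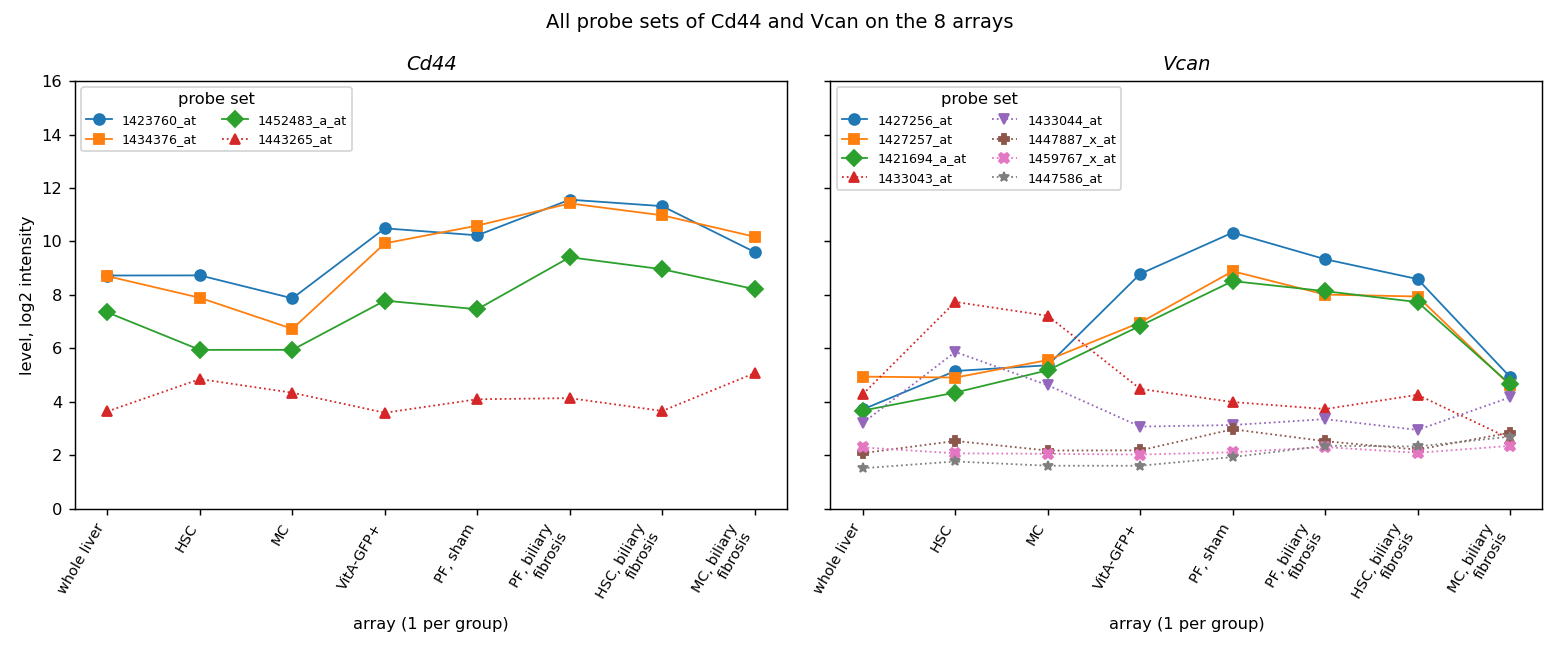
Points are log2 intensities of every probe set of Cd44 (4) and Vcan (8) on the 8 arrays, and lines join a probe set's points only to guide the eye. The 3 brightest Vcan probe sets (solid) stand highest in sham PF, and 1433043_at stands highest in HSC and MC.

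Other genes were listed by role. Besides genes of hyaluronan metabolism and binding, these lists hold partners and splicing regulators of CD44 and versican-cleaving proteases. Of all 56 listed genes, 55 were measured. In HSC of fibrosis 18 were 4-fold higher and 1 lower, so that 34.5% met the rule against 9.03% of all genes. In MC 14 were higher and 1 lower, 27.3% against 10.9%, and in PF 5 and 2, 12.7% against 5.34%. Their median differences in HSC, MC and PF were 0.40, 1.18 and 0.03, against 0.13, 0.25 and -0.01 over all genes. Several of these genes are also hepatocyte, macrophage or endothelial genes, and the lists were made with earlier results of these data known.

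Among other enzymes and binding proteins that break hyaluronan down, Cemip was 4-fold higher in all 3 fractions of fibrosis. It encodes a protein needed for depolymerization of hyaluronan at the cell surface. Its level was 10.82 in MC of fibrosis, 8.41 in PF of fibrosis and 5.51 in HSC of fibrosis, and between 2.80 and 3.21 on the other 5 arrays, all below the array median. The differences were 8.02 in MC, 5.20 in PF and 2.42 in HSC. In HSC of fibrosis the level was barely above the array median of 5.45, so the HSC difference lies between dim values. The sizes depend on how dim values are treated. These values are from 1 of 3 probe sets, the only 1 to reach an array median. The marker lists and sex-linked genes that moved with each pair are given above, and their part in the Cemip differences was not tested. Cemip2, which encodes a related cell surface protein, was higher by 2.62 in HSC, and differed by 1.30 in MC and 1.14 in PF. The 5 remaining genes of this list, Hyal3, Hyal4, Hyal5, Hyal6 and Spam1, were below the array median on every array.

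Of 7 genes that supply the nucleotide sugars, 3 were 4-fold higher in HSC of fibrosis, where 5.90% of all genes were, and 2 in MC, where 6.20% were. In PF 0 of 7 met the rule, a count near the 5.34% of all genes that did. Gfpt2, an isoform of the enzyme that commits glucose to UDP-N-acetylglucosamine, was 6.74 in HSC and 10.32 in HSC of fibrosis, a difference of 3.57. In MC it was 7.45 and 12.62, a difference of 5.17. It was 12.18 in sham PF and was 11.22 in PF of fibrosis. Uap1, which makes UDP-N-acetylglucosamine, was higher by 2.55 in HSC and 3.59 in MC, but its probe sets gave 0.23 to 2.63 and 1.20 to 3.64. Ugp2, which makes UDP-glucose, was higher by 2.09 in HSC, with probe sets from 0.17 to 2.09. Ugdh, which makes UDP-glucuronic acid, differed by 0.38, -0.15 and -0.06 in HSC, MC and PF. The median of the list was 0.39 in HSC and 0.57 in MC. For Gfpt2, as for Tnfaip6, the 3 lowest arrays were those of whole liver, HSC and MC, while the order of the other 5 differed.

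**Figure D4:**
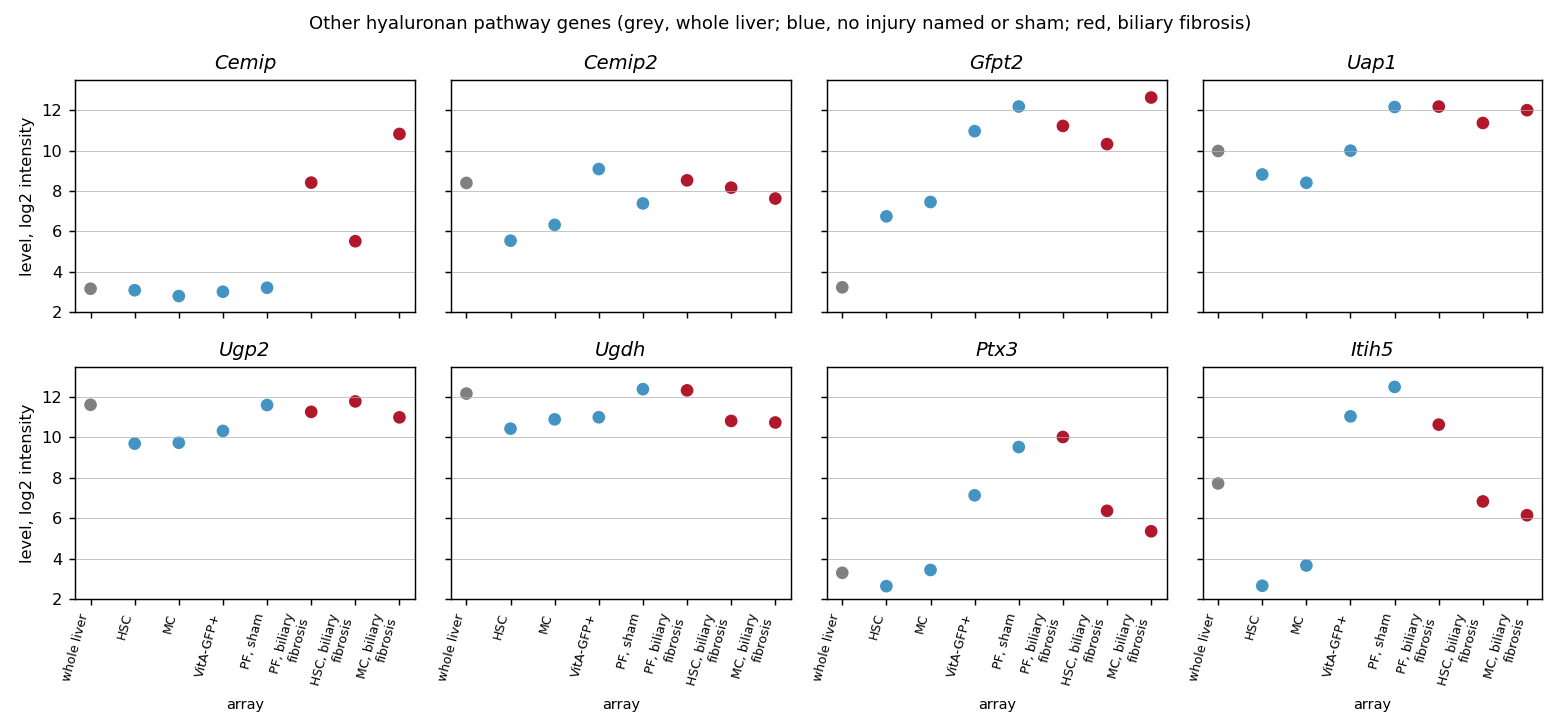
Points are log2 intensities on 1 array per group for 8 genes of the hyaluronan pathway, which were chosen after their values were seen. Cemip stands above its level on the other arrays only in the 3 arrays of biliary fibrosis, and Gfpt2 is low in whole liver, HSC and MC.

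The genes of hyaluronan cross-linking differed most in HSC, where 5 of 7 were 4-fold higher in fibrosis and the median difference was 3.07. Of all genes 5.90% were higher in that pair, and the median difference over all genes was 0.13. Itih4 (4.24), Itih5 (4.17), Ptx3 (3.73) and Itih2 (3.07) led. Itih genes encode heavy chains of the inter-alpha-inhibitor family and Ptx3 encodes a pentraxin that binds them. Itih1 to Itih4 and Ambp are hepatocyte genes, at 12.66 to 13.59 in whole liver. Of 10 hepatocyte markers 6 were 4-fold higher in the same pair, from a summed intensity of 5001 to 11351, and their part was not tested. Itih5 and Ptx3 had other patterns. Itih5 was 12.50 in sham PF, 11.04 in VitA-GFP+ cells and 10.63 in PF of fibrosis, against 7.72 in whole liver. Ptx3 was 10.02 in PF of fibrosis, 9.52 in PF of sham mice, 7.14 in VitA-GFP+ cells and 3.31 in whole liver. In MC, 3 of 7 were higher, Itih5 (2.49), Itih1 (2.29) and Itih4 (2.07), where 6.20% of all genes were. In PF Ambp alone was higher (4.17), where 5.34% of all genes met the rule in either direction. Hepatocyte markers were 4-fold higher for 4 of 10 in MC, from a sum of 246 to 1074, and for 7 of 10 in PF, from 579 to 13792, and their part was not tested.

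Other receptors of hyaluronan include clearance receptors of endothelium and macrophages. In MC of fibrosis, 4 of 7 were 4-fold higher, Lyve1 (3.09), Stab2 (2.86), Stab1 (2.32) and Tlr2 (2.12), with a list median of 2.12. Of all genes 6.20% were higher in that pair, and the median difference over all genes was 0.25. In HSC, Stab1 (3.95) and Lyve1 (2.26) were 4-fold higher, where 5.90% of all genes were. In PF 0 of 7 met the rule, a count near the 5.34% of all genes that did. The second Lyve1 probe set differed by -0.08 in MC and -0.72 in HSC. Endothelial markers were 4-fold higher for 2 of 10 in MC and lower for 1. Macrophage markers went from a summed intensity of 1186 to 7553 in MC and from 345 to 11892 in HSC. The part of endothelial cells and macrophages in these differences was not tested.

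Partners of CD44 and versican proteases varied by fraction. For each list below, the yardstick is the share of all genes that met the rule in either direction. It was 9.03% in the HSC pair, 10.9% in the MC pair and 5.34% in the PF pair. Spp1, which encodes osteopontin, a secreted ligand of CD44, was higher by 8.07 in HSC, 5.05 in PF and 3.72 in MC. It was below the array median in HSC and MC with no injury named, so the sizes there depend on how dim values are treated. Ezr, which links CD44 to actin, was higher by 2.44 in HSC, and so was Cd74 by 3.23. The summed intensity of macrophage markers went from 345 to 11892 in the HSC pair, 1186 to 7553 in the MC pair and 674 to 8715 in the PF pair. Their part in the Spp1, Ezr and Cd74 differences was not tested. Esrp1, a splicing regulator that favours the longer epithelial forms of CD44, was higher by 5.54 in PF and 2.71 in HSC. It is an epithelial gene, and the summed intensity of cholangiocyte markers went from 1166 to 8133 in PF and from 195 to 1128 in HSC. Esrp1 was below the array median in HSC with no injury named. The part of cholangiocytes in the Esrp1 differences was not tested. Of the 6 versican-cleaving proteases, Adamts20 (2.79) and Adamts9 (2.35) were higher in MC and Adamts4 (2.34) in HSC, while Adamts5 was lower in PF by 2.41. Adamts20 was below the array median in MC with no injury named, so its size depends on how dim values are treated. The link protein gene Hapln1 was lower by 3.66 in HSC and 3.52 in MC, and Acan, which encodes aggrecan, was higher by 3.35 in PF. Hapln1 was below the array median in HSC and MC of fibrosis, so its sizes depend on how dim values are treated. Hexa, a lysosomal exoglycosidase gene, was lower by 2.30 in PF.

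For each of the 8 genes, the genes with the most similar course over the 8 arrays were found by Pearson correlation of log2 levels, among 7226 or 7227 genes that spanned at least 2 and reached the 75th percentile of an array. Such r values describe 8 arrays that share RNA quality and cell mixture. Tnfaip6 was most like Csdc2 (r 0.998), Nr4a2 (0.991) and Emp1 (0.987). Has1 was most like Chrdl1 (0.998), Efna2 (0.988) and Igfbp6 (0.985), with Chrdl1 at 11.27 in MC and 5.21 in HSC. Vcan was most like A330068G13Rik (0.991), Scn7a (0.982) and Pi4kb (0.979), and Cd44 like 1810063B05Rik (0.958), Tox2 (0.958) and Gpr176 (0.948). Has2 was most like Btbd11 (0.979), Ccl11 (0.957) and D930026N18Rik (0.954), and Has3 like Smap1 (0.969), Ofd1 (0.968) and Mcart6 (0.965). Hyal1 was most like Stoml2 (0.993), Fpgs (0.989) and Nfu1 (0.985), and Hyal2 like Gpr155 (0.970), Cmtm8 (0.966) and Sla (0.944).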

How the data were processed

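For each of 8 groups, RNA amplified from 20 ng was hybridised to 1 Affymetrix GeneChip mouse array, per the labels' protocols. The authors' processing used RMA and Partek, per the submitters' processing notes, and no version is named there. The deposited intensity values are linear, with array medians from 39.62 to 51.22, and log2 of the deposited values was taken. Both deposited tables are identical in value (largest difference 0.0). Of 45101 probe sets, 64 are controls, 38011 name 1 gene, 1280 several and 5746 none. Genes are named by the file's symbols, older symbols being matched through RefSeq synonyms for Cemip and Cemip2, and probe sets that name several genes were used only for members. With 1 array per group no test was run, and the number of arrays limits the precision. The calling step was tested on simulated data. Python 3.11.15, numpy 2.4.6, pandas 2.3.3 and matplotlib 3.10.9 were used.

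The 8 genes, the gene lists and the 4-fold rule were chosen with earlier results of these data known. All 8 members are named. Of each other list, up to 4 genes of largest difference among those that met the rule are named, and further members (Cemip2, Ugdh, Hyal3 to Hyal6, Spam1, Ptx3 and Itih5 levels, and the single genes of the last lists) were chosen after their values were seen. Gapdh, Ptprc, Xist and Ddx3y check the arrays. Similar genes are the 3 of highest correlation. Settings tried were quantile normalization, a shift to the same median, the call rule without a minimum level or with the 75th percentile in its place, averaging over probe sets of a gene, probe sets without suffix, a 2-fold rule and log2(value + 16).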

Additional observations from a re-analysis of the deposited data

How the results depend on the processing

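There is 1 array per group, and levels below the array median cannot be ordered. No paired analysis was possible because each group has 1 array, and no replicate could be left out. Without a minimum level, and with probe sets without suffix, the number of members that met the rule stayed within 1.5 times in all 13 comparisons. When probe sets of a gene were averaged it was 1 in place of 3 for fibrosis in HSC, 2 in place of 1 for fibrosis in MC (Cd44 added), 1 in place of 2 for HSC against MC of fibrosis, 0 in place of 2 for MC against PF of fibrosis, 2 in place of 5 for MC against VitA-GFP+ cells and 3 in place of 5 for VitA-GFP+ cells against whole liver. For Cd44 a dim probe set enters that mean, and for Vcan both dim probe sets and the 2 that were lower in HSC of fibrosis, by 3.47 and 2.92. With quantile normalization it was 2 in place of 1 for fibrosis in MC (Has3 added), 1 in place of 2 for HSC against whole liver and 1 in place of 2 for sham PF against VitA-GFP+ cells. A shift to the same median gave 2 and 1 for the first and last of these. With log2(value + 16) it was 1 in place of 2 for MC against PF of fibrosis and for sham PF against VitA-GFP+ cells. With the 75th percentile as minimum it was 2 in place of 4 for HSC and 3 in place of 5 for MC against VitA-GFP+ cells, 1 in place of 2 for HSC and 3 in place of 5 for VitA-GFP+ cells against whole liver, 1 in place of 2 for MC against PF of fibrosis and 1 in place of 2 for sham PF against VitA-GFP+ cells. The 2-fold rule gave 1 in place of 0 in the PF pair (Cd44), 4 in place of 1 in the MC pair, 4 in place of 2 for HSC against MC, 6 in place of 2 for MC against PF and 1 in place of 0 for HSC against PF of fibrosis, and 4 in place of 2 for sham PF against VitA-GFP+ cells. The causes were not tested. Of 120 member differences in the 3 fibrosis pairs under other settings, 6 moved by over 0.5 and none of those that met the rule changed sign.

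The share of all genes that met the rule in the PF, HSC and MC pairs was 5.34%, 9.03% and 10.9%, against 16%, 23.8% and 30.1% with the 2-fold rule and 3.35%, 4.21% and 6.63% with the 75th percentile as minimum. With that minimum it was also 5.26% in place of 9.98% for HSC, 5.30% in place of 9.51% for MC and 3.75% in place of 5.81% for sham PF against VitA-GFP+ cells, and 3.79% in place of 6.05% for HSC and 4.94% in place of 7.96% for MC against PF of fibrosis. The 2-fold rule gave 16% to 38.3% over the 13 comparisons. With log2(value + 16) it was 5.49% for HSC and 7.10% for MC. A shift to the same median took the median of all genes in the MC pair from 0.25 to 0.42 and that of VitA-GFP+ cells against whole liver from -0.20 to -0.57. It took the share of higher genes among those called from 59.0% to 47.0% in the latter and from 33.9% to 48.2% for sham PF against VitA-GFP+ cells.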
